A study of Brassica carinata x Brassica rapa with 9 samples.

Results

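Ovules of a synthetic Brassica allohexaploid were compared with its young leaves over all genes, using the 3 Ovule and the 3 Leaf libraries of a series of 9. The members were chosen by tissue label alone, and the values are FPKM (fragment counts divided by gene length and library total) for 100804 genes, of which 75038 had at least 0.5 FPKM in at least 3 of the 9 libraries and were tested. Ovule holds ovules collected across the span between meiosis and the mature embryo sac, and Leaf holds young leaves of the main inflorescence, taken by the study as its vegetative control. Both tissues came from greenhouse plants of the same AABBCC genotype, an A-genome contributed by B. rapa beside B- and C-genomes contributed by B. carinata, obtained after chromosome doubling. The methods call the 3 libraries of each tissue biological replicates, and no source used here says that they came from separate plants, so that p-values measure the spread between libraries only. The fits per gene took in all 9 libraries, so their p-values and intervals also rest on the spread between the 3 Anther libraries of the series.

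An ovule is mostly sporophytic tissue, the nucellus and integuments, and encloses a single meiotic lineage that forms the embryo sac through megaspore formation and mitotic divisions. A young leaf is built largely of photosynthetic cells, in which a limited set of genes for photosynthesis and carbon fixation typically accounts for much of the messenger RNA. In a polyploid, each gene of an ancestral set can be present as related copies on several subgenomes, here recognised by the identifier prefix, which is Bra in the A-genome, BniB in the B-genome and Bol in the C-genome. Because FPKM divides by the library total, a few very abundant genes in one tissue lower the values of all other genes in that tissue.

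The Ovule libraries held 15113297 to 15515748 reads on genes and the Leaf libraries 8675130 to 10153609, as read back from the FPKM values, whose spacing keeps the size of a single read. The study reports that a clearly smaller share of the reads aligned to the genomes in Leaf than in Ovule. What this does to the comparison of the tissues was not tested. The Leaf libraries were close to counting noise: a chi-square per gene averaged 34.7 to 38.8 between pairs of Ovule libraries and 1.65 to 1.99 between pairs of Leaf libraries, where 1 is counting noise alone. It covered only genes with many reads in the pair, 6529 to 6796 for Ovule and 2496 to 2784 for Leaf, so the gene sets and depths differ. Of the 22446 genes with a mean of at least 10 FPKM in Ovule, 1473 (6.56%) differed at least 2-fold between the highest and the lowest Ovule library, against 63 of 17093 (0.37%) for Leaf. No pair of libraries reached counting noise, and none was merged. Whether the Leaf libraries are technical repeats of a single sample cannot be told from the sources used here, and counts with Leaf taken as 1 sample are given for the gene lists and with the processing alternatives. In such bulk samples more cells of a type and more RNA per cell cannot be told apart.

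Transcripts were spread over many more genes in Ovule than in Leaf. The 100 most abundant genes held 8.79%, 9.99% and 9.87% of the summed FPKM in the 3 Ovule libraries, against 22.2%, 22.0% and 22.1% in the 3 Leaf libraries. The groups did not overlap, with a mean of 9.55% ± 0.66 in Ovule and 22.1% ± 0.06 in Leaf (SD, n = 3 each; two-sided exact permutation p = 0.1, the smallest that 3 against 3 libraries allow). To reach 50% of the summed FPKM took 4077, 4138 and 4028 genes in the Ovule libraries, and 1399, 1426 and 1419 genes in the Leaf libraries. The number of genes at 1 FPKM or more was 60236 ± 512 in Ovule and 54157 ± 24 in Leaf (SD, n = 3 each; exact permutation p = 0.1). After rescaling by median of ratios, described next, these numbers came to 58375 ± 472 in Ovule and 57148 ± 113 in Leaf, a smaller gap with the libraries still apart (exact permutation p = 0.1).

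**Figure D1:**
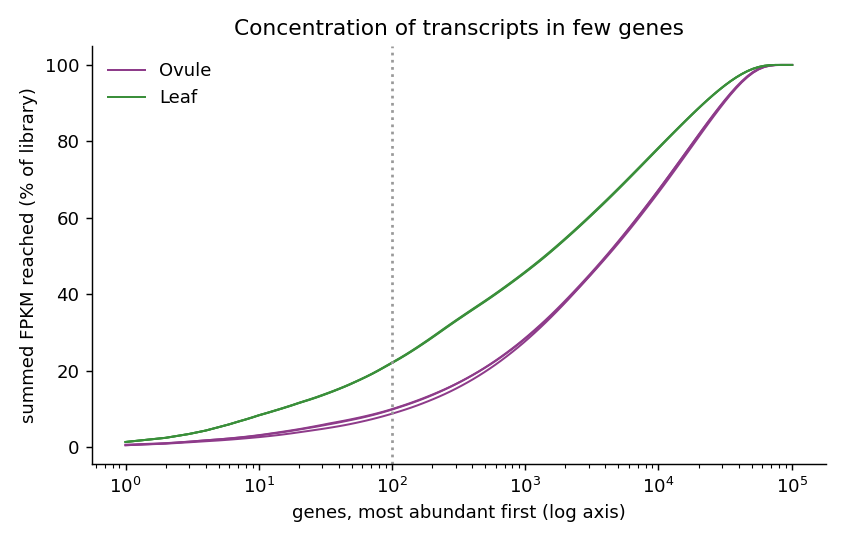
Share of summed FPKM (y axis, % of the library) reached by the most abundant genes (x axis, number of genes, log axis), with 1 line for each of the 3 Ovule and 3 Leaf libraries. At the dotted line, 100 genes, the Leaf lines stand at 22.0% to 22.2% and the Ovule lines at 8.79% to 9.99%.

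The genes that filled the top of each tissue were largely different ones. In Leaf the gene of highest mean was BniB020266, with 113, 66.1 and 47.4 FPKM in Ovule libraries, against 16318, 16134 and 16088 FPKM in Leaf libraries. It was lower in Ovule by every pair of libraries, with a log2 fold change of -7.84 ± 0.87 on FPKM (SE; limma adjusted p = 3.4e-05). Bol008547 had 104, 85.2 and 63.2 FPKM in Ovule, against 10395, 10369 and 10441 FPKM in Leaf. Bol037866 had 86.2, 48.4 and 15.0 FPKM in Ovule, against 10331, 10252 and 10210 FPKM in Leaf. These 3 genes have coding lengths of 801, 804 and 804 bases, varied between Ovule libraries far more than between Leaf libraries, and were highest in the same Ovule library and lowest in the same one. The other genes among the 5 highest in Leaf, BniB044096 and Bol040165, both 546 bases long, had 527 to 594 and 525 to 608 FPKM in Ovule, against 12486 to 12644 and 11621 to 11711 FPKM in Leaf.

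In Ovule the highest mean belonged to Bra029765, at 5910, 5779 and 7431 FPKM, against 3913, 3869 and 3829 FPKM in Leaf. It headed the Ovule list without being called: the libraries did not overlap, but the log2 fold change was 0.71 ± 0.40 on FPKM (limma adjusted p = 0.14) and 0.05 ± 0.40 after rescaling. Bra029719 and BniB007951, among the 5 most abundant Ovule genes and described below, were all but missing from Leaf. BniB006475 had 2985, 5139 and 3892 FPKM in Ovule, against 182, 190 and 198 FPKM in Leaf, with a log2 fold change of 4.36 ± 0.42 on FPKM (limma adjusted p = 1.3e-05). The Anther libraries held 3176, 5545 and 10207 FPKM of it, overlapping those of Ovule, with a higher mean. Bra028446 had 2173, 2144 and 2720 FPKM in Ovule, against 951, 902 and 898 FPKM in Leaf. Its call depended on the scale, with a log2 fold change of 1.35 ± 0.22 on FPKM (limma adjusted p = 0.00037) and 0.69 ± 0.22 after rescaling (limma adjusted p = 0.021, below 2-fold).

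Differences between the tissues covered a large part of the genes tested, and their direction depended on how the libraries were scaled to each other. On FPKM as deposited, 27612 genes (36.8% of those tested) were called higher in Ovule and 11071 (14.8%) higher in Leaf, 38683 (51.6%) in all, the rule being a change of 2-fold or more with a limma adjusted p no higher than 0.05. On rescaled FPKM, 15757 genes (21.0%) were called higher in Ovule and 16125 (21.5%) higher in Leaf, 31882 (42.5%) in all. Rescaling divides each library by its median-of-ratios factor, the median over genes above 0 in all 9 libraries of the gene's FPKM over its geometric mean. These factors were 1.20, 1.21 and 1.20 for the Ovule libraries and 0.76, 0.76 and 0.77 for the Leaf libraries, so rescaling moved genes towards Leaf. The median shift on the log2 scale was 0.66 in genes with a mean above 100 FPKM and 0.38 in those up to 1 FPKM, where the pseudocount weighs more. The median log2 fold change over all genes tested was 0.66 on FPKM and 0.08 on rescaled FPKM. The share of calls that favoured Ovule was thus 71.4% on FPKM, 67.6% with library sums taken without the top 100 genes, 57.3% with upper-quartile factors and 49.4% with median-of-ratios factors. With limma voom on the reads, another model and input, it was 70.3% with library totals and 46.4% with median-of-ratios factors. Which of these scalings fits the RNA content of the cells was not tested. Each direction below is given on both scales, is one that both share, or is marked as on FPKM alone.

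**Figure D2:**
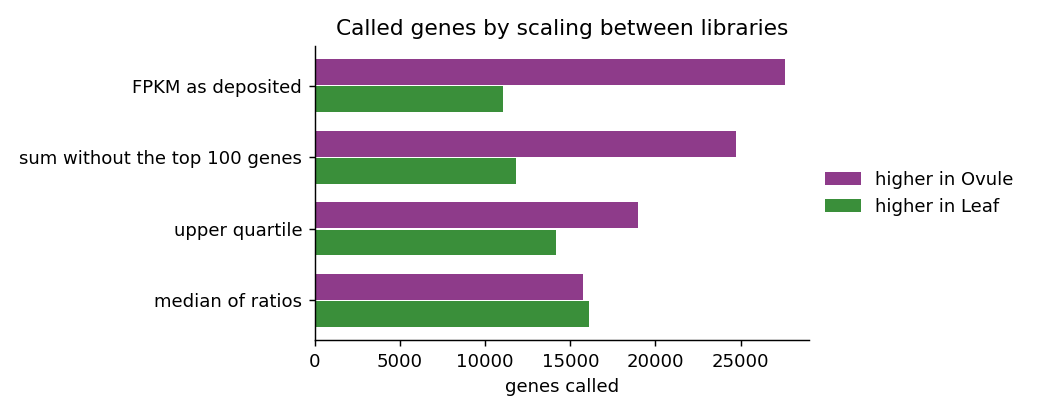
Number of genes called towards Ovule and towards Leaf (x axis) under 4 scalings between libraries (y axis). Calls higher in Ovule number 27612 on FPKM as deposited and 15757 with median-of-ratios factors, while calls higher in Leaf number 11071 and 16125.

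Rescaling shifted the log2 fold change by 0.66 at the 95th percentile of genes. That is too small to turn a call towards Ovule into a call towards Leaf, so no gene could change sides between the scales, and none did. Of the genes tested, 15757 were called higher in Ovule on both scales, 11070 were called higher in Leaf on both, and 31300 were called on neither. The scales differed over 11855 genes that were higher in Ovule on FPKM only, with a median log2 fold change of 1.3 on FPKM and 0.67 on rescaled FPKM, and 92.6% of them fell below 2-fold on rescaling. They also differed over 5055 genes that were higher in Leaf on rescaled FPKM only, with a median of -0.67 on FPKM and -1.31 on rescaled FPKM. A single gene was higher in Leaf on FPKM only. With a shift of this size, the disputed calls were bound to fall mostly on genes of modest change.

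**Figure D3:**
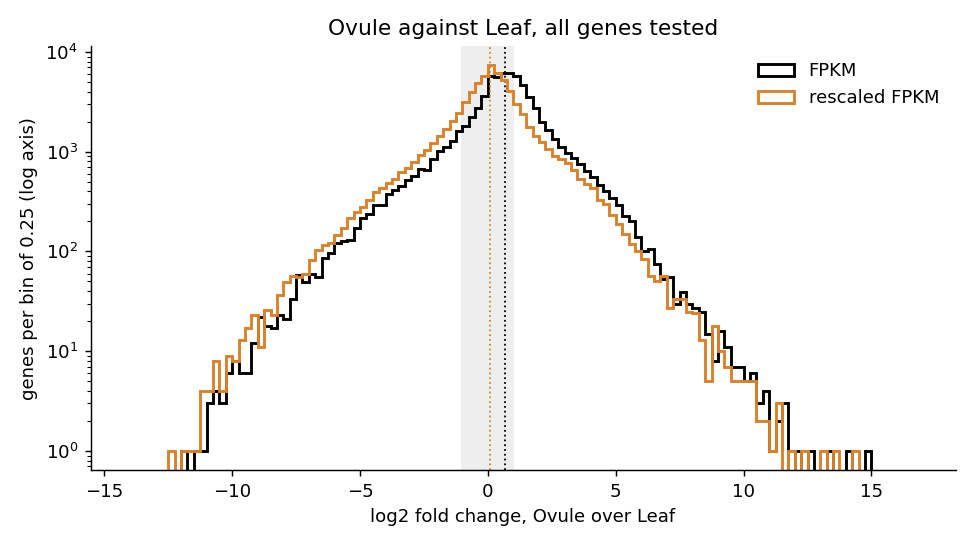
Log2 fold change of Ovule over Leaf (x axis) for the 75038 genes tested, in bins of 0.25 (y axis, number of genes, log axis), on FPKM and on rescaled FPKM. The dotted medians stand at 0.66 on FPKM and 0.08 on rescaled FPKM, and the grey band marks changes below 2-fold.

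By effect size, changes of 2- to 4-fold made up 15275 of the calls higher in Ovule and 4435 of those higher in Leaf on FPKM, and 7172 and 6838 on rescaled FPKM. Changes of 64-fold or more numbered 635 genes towards Ovule and 588 towards Leaf on FPKM, and 476 and 836 on rescaled FPKM. In that strongest class the balance between the tissues therefore also turned with the scale. Small changes could be shown as such where the 95% interval of the fold change, not adjusted for the number of genes, lay wholly within 2-fold, which held for 15352 genes (20.5%) on FPKM and 21421 (28.5%) on rescaled FPKM. The interval lay wholly beyond 2-fold towards Ovule for 16861 genes and towards Leaf for 7848 on FPKM, and for 9826 and 11539 on rescaled FPKM. For the remaining 34977 genes on FPKM and 32252 on rescaled FPKM, 3 libraries a tissue did not decide on which side of 2-fold the change lay.

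Genes of 16-fold change or more on both scales numbered 2309 higher in Ovule and 2173 higher in Leaf. Those higher in Ovule had median levels of 9.47 FPKM in Ovule, 3.54 FPKM in Anther and 0.08 FPKM in Leaf. Those higher in Leaf had median levels of 0.19 FPKM in Ovule, 0.37 FPKM in Anther and 13.1 FPKM in Leaf. Over all genes tested the median Anther level was 4.93 FPKM, above that of either set. By these medians the strong Ovule genes stood in Anther between their Ovule and Leaf levels, but not above the genes tested as a whole. The strong Leaf genes were low in Ovule and in Anther. The sets were chosen by Ovule and Leaf alone, and a pattern shared by Ovule and Anther was not tested. Of all genes in the table, 22 had a mean above 100 FPKM in Ovule with 0 in every Leaf library, and 8 had 0 in every Ovule library with a mean above 100 FPKM in Leaf. A further 226 genes stood above 10 to 100 FPKM in Ovule with 0 in Leaf, against 88 with 0 in Ovule and above 10 to 100 FPKM in Leaf. These counts are on FPKM alone, and rescaling would move the limits. The Leaf libraries also held fewer reads, so that a value of 0 is easier to reach there.

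The 10 genes of largest fold change towards Ovule, by a rule that asked for calls on both scales, libraries that did not overlap and a mean of at least 10 FPKM, fell into patterns by their Anther level. Bra029719, of 336 bases, had 4373, 4836 and 4403 FPKM in Ovule, against 0.29, 0 and 0 FPKM in Leaf, and 966, 1183 and 1397 FPKM in Anther. That Leaf value is 1 read, so the read ratio of Ovule to Leaf per read on genes, 43357, has a 95% counting interval of 7781 to 1.71e+06. Its log2 fold change was 14.81 ± 0.45 on FPKM and 14.44 ± 0.52 on rescaled FPKM (SE; limma adjusted p = 2.3e-08 and 4.9e-08). BniB007951, of 342 bases, resembled it, with 3875, 3743 and 4318 FPKM in Ovule, against 0, 1.01 and 0 FPKM in Leaf, and 1244, 1540 and 1695 FPKM in Anther. Bra000815, BniB002303, Bra004715, Bra024168, BniB018452 and Bol027395 shared this pattern of a high Ovule level, a lower Anther level and at most 2 reads in Leaf. Among them BniB002303 had 305, 315 and 364 FPKM in Ovule, against 0 in each Leaf library, at least 365-fold higher at a floor of 3 reads per library. Bra024168 had 288, 257 and 342 FPKM in Ovule, against 0 in each Leaf library, at least 301-fold higher.

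Bra001432 and BniB041218 had another pattern, with almost no signal in Anther. Their wide spread within Ovule was shared by Bol027395 of the first pattern, at 219, 517 and 664 FPKM in Ovule. Bra001432 had 365, 617 and 960 FPKM in Ovule, against 0 in each Leaf library, and 0.25 to 0.32 FPKM in Anther. BniB041218 had 257, 527 and 831 FPKM in Ovule, against 0 in each Leaf library, and at most 0.15 FPKM in Anther. Both were highest in the same Ovule library and lowest in the same one, by more than 2-fold, and were at least 2112-fold and at least 2234-fold higher than in Leaf. No gene name or function comes with these identifiers, so their roles are not stated.

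The 10 genes of largest fold change towards Leaf were even within Leaf. BniB013372, of 1077 bases, had 0.06, 0 and 0.12 FPKM in Ovule, against 616, 628 and 638 FPKM in Leaf, and 0.49 to 0.61 FPKM in Anther. Its log2 fold change was -12.00 ± 0.27 on FPKM and -12.47 ± 0.24 on rescaled FPKM (limma adjusted p = 4.9e-09 and 3.2e-09). BniB041457 was the least even in Ovule, at 2.51, 0 and 0.20 FPKM, against 844, 863 and 859 FPKM in Leaf. No read fell in any Ovule library on 4 of these genes, Bra013123, BniB011569, BniB039044 and Bra008993. Of these, BniB039044 had 151, 148 and 161 FPKM in Leaf and was at least 581-fold lower in Ovule, with 1.3 to 1.5 FPKM in Anther. Bra013123 had 192, 179 and 186 FPKM in Leaf and BniB011569 had 165, 183 and 175 FPKM in Leaf, and both had no read in Anther either. They were at least 231-fold and at least 273-fold lower in Ovule.

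**Figure D4:**
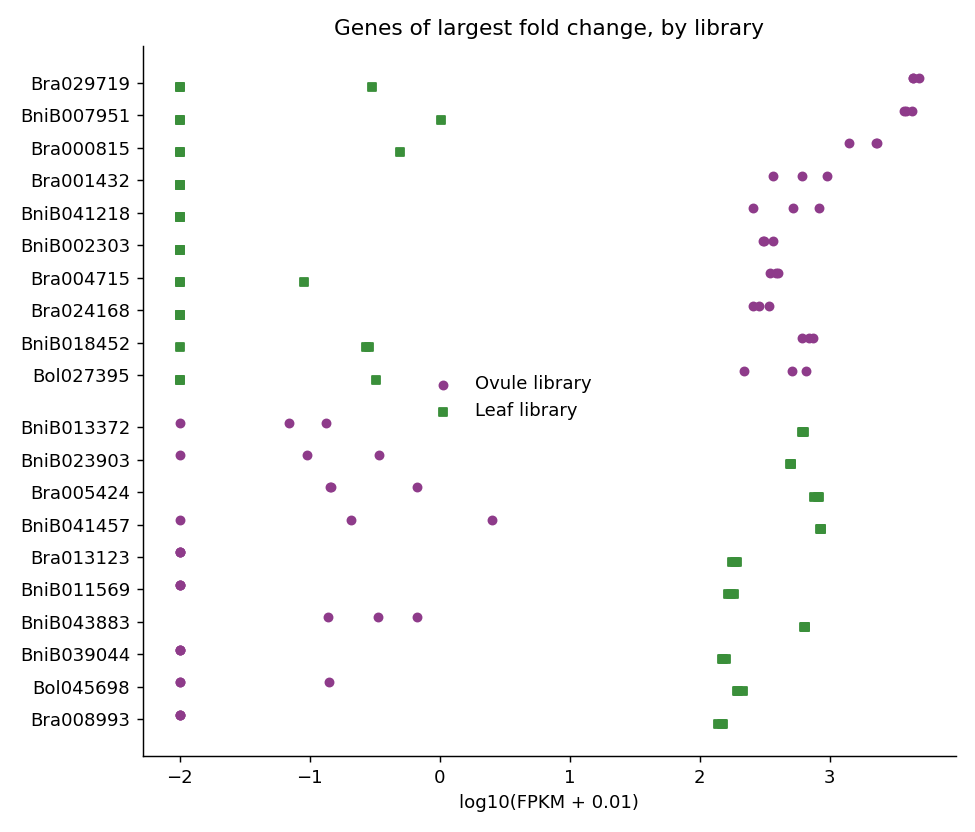
Levels of the 10 genes of largest fold change towards Ovule (upper rows) and the 10 towards Leaf (lower rows) in each of the 3 Ovule and 3 Leaf libraries (x axis, log10 of FPKM + 0.01, so that 0 FPKM stands at -2). Ovule and Leaf points are apart in each of the 20 rows. Among the upper rows, the Ovule points of Bra001432, BniB041218 and Bol027395 spread more than 2-fold.

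The balance of direction varied with abundance, on both scales. Genes were placed in 4 classes by their mean FPKM over the 6 libraries: up to 1 (13697 genes), above 1 to 10 (40528), above 10 to 100 (19238) and above 100 (1575). The share of calls that were higher in Ovule was 71.9%, 75.8%, 64.5% and 48.5% over these classes on FPKM, and 59.3%, 53.5%, 37.1% and 28.8% on rescaled FPKM. On FPKM the genes called higher in Ovule made up 31.5%, 39.9%, 34.1% and 36.9% of the classes and those called higher in Leaf 12.3%, 12.7%, 18.8% and 39.2%, so that the low share above 100 FPKM went with more calls higher in Leaf. On rescaled FPKM the calls in that class numbered 272 towards Ovule and 672 towards Leaf. The median log2 fold change was 0.58, 0.74, 0.54 and 0.34 over the classes on FPKM, and 0.27, 0.11, -0.12 and -0.32 on rescaled FPKM. With classes set by the mean of log2(FPKM + 0.1) instead, the share on rescaled FPKM was 61.7%, 51.2%, 30.0% and 24.6%, and the order of the classes held on that scale. An arithmetic mean puts a gene that is very high in a single tissue into a high class, whichever tissue that is.

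**Figure D5:**
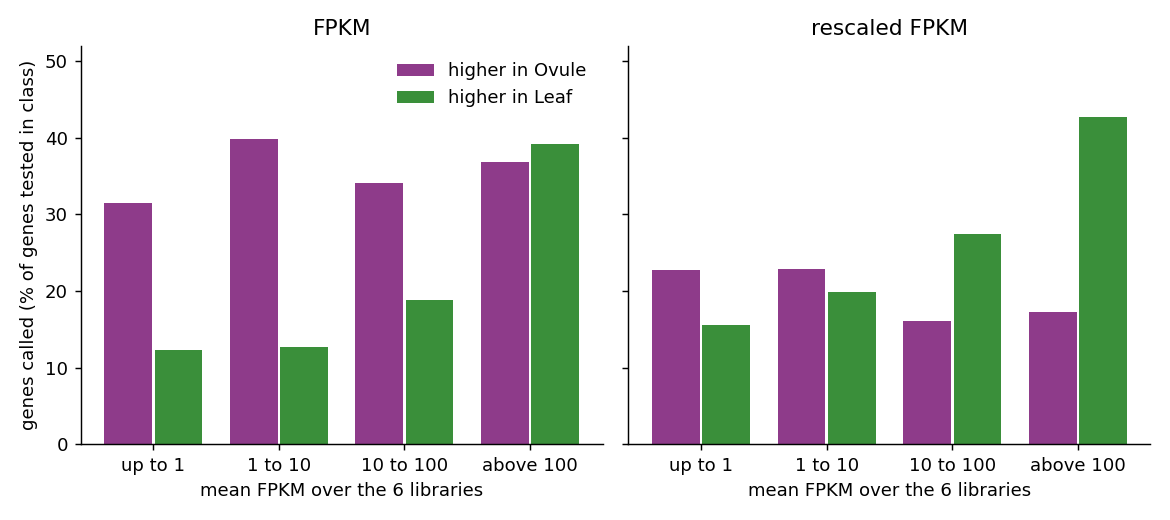
Genes called towards Ovule and towards Leaf (y axis, % of the genes tested in the class) by mean FPKM over the 6 libraries (x axis), on FPKM (left) and rescaled FPKM (right). Above 100 FPKM, 36.9% were higher in Ovule and 39.2% in Leaf on FPKM, and 17.3% and 42.7% on rescaled FPKM.

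In the class above 100 FPKM, 76.1% of the genes were called on FPKM and 59.9% on rescaled FPKM, a description, since the mean that sets the class takes in both tissues. With classes from the mean of log2(FPKM + 0.1), 66.9% were called above 100 FPKM on FPKM, and on rescaled FPKM 47.4%, against 49.2% up to 1 FPKM. The class of 1575 genes with a mean above 100 FPKM took 29.9% ± 0.33 of the summed FPKM in Ovule and 48.2% ± 0.15 in Leaf (SD, n = 3 each). Genes called higher in Leaf on rescaled FPKM, 16125 in all, took 11.8% ± 0.30 of the summed FPKM in Ovule and 63.9% ± 0.02 in Leaf. Genes called higher in Ovule, of nearly the same number, took 30.5% ± 0.80 in Ovule and 3.57% ± 0.02 in Leaf. Since these sets were chosen by the same values, their shares are a description.

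Precision set how far the lowest class could be read. Genes up to 1 FPKM had a median of 5.67 reads per Ovule library and 1.67 per Leaf library, and the 95% interval of their log2 fold change reached a median of 1.03 to either side on FPKM, against 0.36 above 10 to 100 FPKM. Clear cases existed in that class: BniB040196 had 2.09, 2.07 and 1.82 FPKM in Ovule (112, 110 and 95 reads), against 0 in each Leaf library, at least 21.6-fold higher. Bol006034 had 0 in each Ovule library, against 2.06, 2.04 and 1.85 FPKM in Leaf (85, 72 and 72 reads), at least 41.2-fold lower in Ovule. Both are long genes, of 3450 and 4065 bases, which gives more reads at the same FPKM. In the short BniB047981, of 315 bases, 0 in each Ovule library stood against 6, 4 and 8 reads in Leaf, and the bound was only 3.21-fold.

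The genes of largest change in the classes of intermediate level are given as examples, since a class capped by its mean favours genes that are near 0 in one tissue. Above 1 to 10 FPKM, Bra036838, BniB007037 and Bol012288 had 14.6 to 22.4, 16.9 to 20.3 and 17.6 to 19.4 FPKM in Ovule, against 0 in every Leaf library. Bol012288 had at most 0.09 FPKM in Anther. In the same class, Bra023688, BniB044110 and Bol026846 had 0 in every Ovule library, against 18.6 to 20.7, 15.7 to 21.2 and 17.4 to 20.7 FPKM in Leaf. Above 10 to 100 FPKM, Bra037895 had 204, 202 and 189 FPKM in Ovule, against 0 in every Leaf library, at least 432-fold higher. BniB014827 had 226, 216 and 107 FPKM in Ovule, so that 1 Ovule library held less than the others, against 0 in every Leaf library. Bol008683 had 140, 153 and 116 FPKM in Ovule, against 0 in every Leaf library, at least 154-fold higher.

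At the other end, some abundant genes kept their level. The 5 genes with a mean of at least 100 FPKM whose intervals held closest to no change on rescaled FPKM were Bra037884, BniB025949, BniB042986, BniB039807 and Bol023910. Bra037884 had 146, 127 and 139 FPKM in Ovule, against 83.8, 90.3 and 87.5 FPKM in Leaf. Its rescaled log2 fold change was 0.00 with a 95% interval of -0.23 to 0.22, whereas on FPKM it was 0.65, from 0.43 to 0.88. Bol023910 had 337, 307 and 332 FPKM in Ovule, against 209, 203 and 212 FPKM in Leaf, with a rescaled log2 fold change of -0.01, from -0.28 to 0.26. A gene described as steady on one scale thus sat near the median shift of 0.66 on the other, and none of the 5 was called on either scale.

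The 3 subgenomes behaved much alike. Called genes made up 13800 of the 26504 genes tested in the A-genome (52.1%), 13858 of 26928 in the B-genome (51.5%) and 11025 of 21606 in the C-genome on FPKM, against 51.6% over all genes, and 43.2%, 42.1% and 42.1% on rescaled FPKM. The share of calls higher in Ovule was 70.5%, 72.2% and 71.5% on FPKM and 48.9%, 50.1% and 49.2% on rescaled FPKM. In the class above 100 FPKM that share was 48.0%, 48.4% and 49.2% in the A-, B- and C-genome on FPKM. On rescaled FPKM it was 28.2%, 29.2% and 29.1%. On FPKM the genes called higher in Ovule made up 35.6%, 38.3% and 37.1% of that class, and those called higher in Leaf 38.6%, 40.9% and 38.3%. On rescaled FPKM those called higher in Ovule made up 16.5%, 18.3% and 17.3%, against 15.8%, 16.2% and 16.5% above 10 to 100 FPKM. Those called higher in Leaf made up 41.9%, 44.3% and 42.1% on that scale, against 27.4%, 27.9% and 26.8%. The median level of a subgenome relative to all genes tested differed between Ovule and Leaf by -0.00682, 0.0137 and -0.00204 on the log2 scale for the A-, B- and C-genome. Ovule and Leaf libraries overlapped in all 3 (two-sided exact permutation p = 1, 0.5 and 0.6, adjusted 1, 0.9 and 0.9).

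By summed FPKM, which weights abundant genes more, Ovule and Leaf libraries did not overlap in any subgenome. The A-genome held 38.6%, 38.5% and 38.1% in Ovule libraries, against 37.2%, 37.1% and 37.1% in Leaf libraries, a difference of 1.24 percentage points (exact permutation p = 0.1, adjusted over the subgenomes 0.1). The B-genome held 32.1% ± 0.42 in Ovule and 32.9% ± 0.02 in Leaf, and the C-genome 29.5% ± 0.12 in Ovule and 29.9% ± 0.06 in Leaf (SD, n = 3 each; exact permutation p = 0.1 each). Without the 100 genes of highest mean FPKM the direction turned for the A-genome, with a difference of Ovule minus Leaf of -0.37 points, and for the C-genome, with 0.59 points (exact permutation p = 0.1 each). The B-genome kept its direction at -0.22 points, with libraries that overlapped (exact permutation p = 0.4). Among genes of 16-fold change or more on both scales, the A-genome gave 36.9% of those higher in Ovule and 39.0% of those higher in Leaf, against 35.3% of all genes tested. The B-genome gave 34.4% and 33.0%, against 35.9%, and the C-genome 28.6% and 28.0%, against 28.8%.

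Genes known for meiosis, female gametophyte development and anther tissue were taken from the study, which chose them on these libraries, so that their directions are not independent evidence. Their names and roles are those of the orthologs in Arabidopsis thaliana. All 37 meiosis genes were higher in Ovule on FPKM, and 36 of 37 on rescaled FPKM, where 36.8% and 21.0% of all genes tested were called in that direction. Their median log2 fold change was 2.98 on FPKM and 2.60 on rescaled FPKM, against 0.66 and 0.08 over all genes tested. Their summed FPKM was 88.9, 92.6 and 85.9 in Ovule libraries, against 6.44, 8.31 and 6.09 in Leaf libraries. Levels were low in absolute terms: with a pseudocount of 1 in place of 0.1, 22 of 37 were called on FPKM and 14 on rescaled FPKM. On the Ovule and Leaf libraries alone, 31 of 37 passed the filter, and all 31 were called higher in Ovule on both scales. With Leaf taken as 1 sample, 34 were called on FPKM and 27 on rescaled FPKM.

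The meiosis genes are given by step of recombination, with no test between steps or against Anther, whose second library was the highest in every step. Genes of non-crossover repair summed to 38.5 ± 2.38 FPKM in Ovule, against 3.33 ± 0.55 FPKM in Leaf, with 29.5, 44.2 and 26.9 FPKM in Anther libraries (SD, n = 3 each). Among them RMI1 copy Bra031944, a partner of the RECQ4A helicase, had 7.12, 7.10 and 6.64 FPKM in Ovule, against 0.11, 0.33 and 0.19 FPKM in Leaf (log2 fold change 4.58 ± 0.38 on FPKM, limma adjusted p = 5.5e-06). Genes of synapsis summed to 14.4 ± 1.57 FPKM in Ovule, against 0.89 ± 0.29 FPKM in Leaf, with 55.1, 170 and 69.8 FPKM in Anther. There the chromosome axis gene ASY1, copy BniB009412, had 6.31, 7.68 and 5.83 FPKM in Ovule, against 0.32, 0.31 and 0.34 FPKM in Leaf (log2 fold change 3.98 ± 0.32 on FPKM, limma adjusted p = 4.6e-06). Those that make double-strand breaks summed to 19.9 ± 1.06 FPKM in Ovule and 2.09 ± 0.37 FPKM in Leaf, with 18.5, 47.1 and 20.4 FPKM in Anther. Class I crossover genes summed to 16.4 ± 1.56 FPKM in Ovule and 0.65 ± 0.26 FPKM in Leaf, with 33.2, 108 and 39.5 FPKM in Anther. The meiosis gene not called on rescaled FPKM was the SHOC1 copy Bra029127, a class I crossover gene, with 0.27, 0.34 and 0.22 FPKM in Ovule, against 0.04, 0.02 and 0.02 FPKM in Leaf.

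All 23 genes of female gametophyte development were higher in Ovule on both scales, where 36.8% of all genes tested were on FPKM and 21.0% on rescaled FPKM. Their median log2 fold change was 3.34 on FPKM and 2.71 on rescaled FPKM. With Leaf taken as 1 sample, 23 were called on FPKM and 22 on rescaled FPKM. They summed to 260, 228 and 244 FPKM in Ovule libraries, against 24.1, 27.5 and 22.2 FPKM in Leaf libraries, with 74.7 to 87.6 FPKM in Anther. Genes of nuclear positioning changed most by their median log2 fold change, 4.49 on FPKM and 4.01 on rescaled FPKM. They summed to 44.1 ± 3.22 FPKM in Ovule and 2.26 ± 0.45 FPKM in Leaf. The group is made of 5 copies of NACK1 and 1 TUBG1 gene. Rescaled log2 fold changes were at least 3.95 in the NACK1 copies and 2.71 in TUBG1, so the size of the change rests on NACK1. In that group NACK1 encodes a kinesin of cytokinesis, and its copy Bol030782 had 7.20, 5.96 and 5.24 FPKM in Ovule, against 0.07, 0.12 and 0.04 FPKM in Leaf (log2 fold change 5.18 ± 0.27 on FPKM, limma adjusted p = 3.4e-07). Copies of RanGAP1, which activates the Ran GTPase, summed to 72.0 ± 3.82 FPKM in Ovule and 8.37 ± 0.07 FPKM in Leaf. The smallest rescaled change was in the APC1 copy BniB038334, a subunit of the anaphase-promoting complex, with 1.88, 2.00 and 1.55 FPKM in Ovule, against 0.61, 0.41 and 0.52 FPKM in Leaf (log2 fold change 1.05 ± 0.28 on rescaled FPKM, limma adjusted p = 0.0096).

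The 51 genes of the tapetum and pollen wall mark anther tissue. They summed to 40.8, 67.0 and 145 FPKM in the 3 Ovule libraries, against 25.4, 27.8 and 26.3 FPKM in the 3 Leaf libraries, and to a mean of 13009 FPKM in Anther, so that Ovule stood at 0.65% of Anther, and the median gene at 0.41%. On rescaled FPKM the sums overlapped, at 33.9, 55.3 and 121 in Ovule, against 33.5, 36.3 and 34.3 in Leaf. Of the mean sums, 39.1 of 84.4 FPKM in Ovule and 25.3 of 26.5 FPKM in Leaf came from 3 genes, the TKPR2 copies BniB031910 and Bol024018 and the TKPR1 copy BniB015834, which encode reductases of sporopollenin synthesis. Without these 3, a split chosen after the values were seen, the other 48 genes summed to 4.81, 27.7 and 103 FPKM in Ovule, against 1.42, 1.12 and 1.04 FPKM in Leaf. Of the 51 genes, 1 was at 0 in every Ovule library and 37 were at 0 in every Leaf library. All 51 were tested because the filter took in Anther, and only 6 of them passed the same filter on the Ovule and Leaf libraries alone. In a fit of those libraries alone, 3 were called higher in Ovule on FPKM. On rescaled FPKM that fit called 2 higher in Ovule and 1 higher in Leaf. The shares of the 51 that follow therefore count genes brought into the test by Anther. On FPKM 24 (47.1%) were called higher in Ovule, against 36.8% of all genes tested, and none in Leaf. On rescaled FPKM 14 (27.5%) were higher in Ovule, against 21.0% of all genes tested, and 1 in Leaf, the TKPR2 copy Bol024018, with 5.99, 6.81 and 7.90 FPKM in Ovule, against 11.1, 11.4 and 10.1 FPKM in Leaf. These counts moved with every single library: the calls higher in Ovule numbered 37 on FPKM and 36 on rescaled FPKM without Ovule replicate 1, 10 and 9 without Ovule replicate 2, 10 and 7 without Ovule replicate 3, and 11 to 12 and 6 to 8 without 1 of the Leaf libraries. With Leaf taken as 1 sample they numbered 5 and 4. Only 13 of the 51 genes had libraries that did not overlap with Ovule above Leaf, against 53.3% of all genes tested. ABCG26, an exporter needed for the pollen wall, gave an example in its copy Bol015793, at 0.03, 1.52 and 5.46 FPKM in Ovule, against 0 in each Leaf library, with 510 FPKM on average in Anther. The source of these reads in the Ovule libraries was not tested.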

How the data were processed

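The deposited FPKM values were made by the authors, who aligned filtered reads with HISAT2 2.1.0 to the joined B. rapa v1.5, B. nigra v1.1 and B. oleracea v1.0 genomes, counted them per gene with HTSeq 0.6.0 and normalised by gene length and library total. No scaling between libraries is stated, and StringTie 1.3.2 is named in the labels without a role. Reads shared by near-identical copies on the subgenomes can be lost or placed on the wrong copy, which was not tested.

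The values of a gene were multiples of its value for a single read in all 100804 genes (tolerance 0.01 read), which gave back the reads. A gene above 0 in a single library meets this by construction. In 2077 genes the reads were multiplied by a common factor, taken so that the coding length became a multiple of 3. The recovered reads and coding lengths served for depth, bounds and 1 alternative. Bounds ("at least") use a floor of 3 reads per library, and intervals on reads cover counting error only.

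limma 3.58.1 in R 4.3.3 was fitted to log2(FPKM + 0.1) of all 9 libraries in 1 model with an eBayes trend, for genes that reached 0.5 FPKM in 3 or more libraries. A call needed a change of 2-fold or more and a p, adjusted by the Benjamini-Hochberg method, no higher than 0.05. Fold changes are on this log2 scale, which understates those of low genes. The second fit used FPKM divided by median-of-ratios factors and the same genes. Tested on simulated data for Ovule against Leaf (74963 genes), the fit found 6 of 67 true 2-fold changes, 60 of 67 at 4-fold and 65 of 66 at 8-fold on either scale, and made 12 wrong calls. The simulation changed few genes, gave all genes and tissues the same spread and held no shift between the tissues. The real libraries differ in each of these, so its counts only check the fit and do not carry over. A true 2-fold change also lies on the limit of a call. Single values were compared by two-sided exact permutation of libraries. The remaining work ran in Python 3.11.15 (numpy 2.4.6, pandas 2.3.3, scipy 1.17.1; plots in matplotlib 3.10.9).

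Named genes are the 10 of largest fold change each way as described, the 5 most abundant of each tissue, the largest change each way in each class and subgenome, the 5 steadiest genes above 100 FPKM, and examples from the study's lists of 37, 51 and 23 genes. Of these, the results of 1 listed gene are not described. Members, lists and rules were chosen with earlier results of these data known. Alternatives were other pseudocounts and filters, other scalings, only Ovule and Leaf in the fit, a replicate block, vooma, voom, treat, Leaf as 1 sample, other abundance classes and leaving out each library. No genome sequence was used here.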

Additional observations from a re-analysis of the deposited data

How the results depend on the processing

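On FPKM, calls higher in Ovule outnumbered those higher in Leaf under every alternative run other than median-of-ratios factors. On rescaled FPKM calls higher in Leaf were the more numerous, except with a pseudocount of 0.01 (15929 in Ovule and 15919 in Leaf). The median log2 fold change on FPKM was 0.45 with a pseudocount of 1, 0.74 with 0.01, 0.41 with no filter and 0.69 with only Ovule and Leaf in the fit. On rescaled FPKM it was 0.0379 with a pseudocount of 1 and 0 with no filter, and it ranged between 0.0533 and 0.0729 when each library was left out. Genes within 2-fold numbered 28015 on FPKM and 34804 on rescaled FPKM with a pseudocount of 1. Under limma treat, which tests against 2-fold, 23074 genes were called on FPKM, 15648 of them higher in Ovule, and 19742 on rescaled FPKM, 8950 of them higher in Ovule. Median-of-ratios factors left 15757 genes higher in Ovule, with shares of calls higher in Ovule of 59.3%, 53.5%, 37.1% and 28.8% by abundance class. Classes from the mean of log2(FPKM + 0.1) gave 70.6% up to 1 FPKM and 53.7% above 100 FPKM on the FPKM scale. With Leaf counted as 1 sample, 33361 genes were called on FPKM and 27080 on rescaled FPKM.

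Subgenome differences in summed FPKM turned round without the 100 genes of highest mean FPKM (A-genome -0.37 points, C-genome 0.59) and for summed log2(FPKM + 1) (A-genome -0.30, B-genome 0.34), and the cause was not tested. The B-genome without those genes (-0.22) and the C-genome for summed log2 (-0.03) kept their direction with libraries that overlapped. Calls for the tapetum and pollen wall genes also fell to 4 on FPKM and 2 on rescaled FPKM with a pseudocount of 1, and to 7 and 1 with voom. The deviations of same-numbered Ovule and Leaf libraries correlated at 0.0139, 0.00732 and -0.00284. Because the Leaf libraries were close to counting noise, these values cannot decide whether the replicate numbers pair the tissues. With a replicate block, 38666 genes were called on FPKM and 31868 on rescaled FPKM. Depth limits genes up to 1 FPKM most.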

Other observations

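Coding length, which the report's classes did not use, separated the calls higher in Leaf more than those higher in Ovule. Over 5 equal parts of the tested genes from short to long, 22.1%, 25.0%, 22.5%, 21.2% and 16.6% were called higher in Leaf on rescaled FPKM, against 20.2%, 20.5%, 21.4%, 22.3% and 20.5% higher in Ovule. On FPKM the share higher in Leaf was 16.4%, 18.2%, 15.2%, 13.9% and 10.1%. The lowest share higher in Leaf, in the part with the longest genes, was common to both scales. Longer genes also carried more reads, with a median of 27.2 per library in the part with the shortest genes and 125 in that with the longest, and the part of length and depth in these shares was not tested.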
